A study of Mus musculus with 4 samples.

Results

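Elastin and the proteins that assemble with it into elastic fibres were followed in whole dorsal skin of adult mice, as a set of 10 genes. The set holds elastin (Eln), the fibrillins Fbn1 and Fbn2, the fibulins Fbln1, Fbln2, Fbln5, Efemp1 and Efemp2, and the microfibril-associated proteins Mfap4 and Mfap5. A gene was measured where the platform annotation gave a probe set to that gene alone, which held for 8 of the 10 genes and 15 probe sets. Fbn1 and Efemp2 were not analysed here. The whole table holds 18194 genes measured in that way, of which 10916 lay above an intensity filter and were tested, among them 7 of the 10. Fbn2 was measured but lay below the filter.

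The skin came from male mice of strain C57B6 at postnatal day 54 (P54, 2 arrays) and postnatal day 59 (P59, 2 arrays), given as a middle and a late time of adult telogen, when hair follicles rest. No genetic change or drug is named in the labels for either group. Skin was shaved and taken after death, and the labels call the arrays of a group biological replicates without naming animals, so p-values measure the spread between these samples. Values are log2 of the deposited intensity, and a difference is the mean at P59 minus the mean at P54 on that scale.

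Elastic fibres give skin its recoil. Fibroblasts secrete soluble elastin, which is laid onto a scaffold of fibrillin microfibrils with the help of fibulins and is then crosslinked by lysyl oxidases. The finished fibres are long-lived, and dermal networks of them run between the hair follicles and along the muscles that raise the hairs.

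The arrays differed in a control of RNA quality, in which P59 replicate 2 stood apart. Several low values given below lie in that array alone, and the part of RNA quality in them was not tested. The array carries control probe sets for the 3′ and the 5′ end of Gapdh and Actb, and partly degraded RNA or short labelled copies give a high 3′ over 5′ ratio. For Gapdh that ratio was 1.27 in P54 replicate 1, 1.15 in P54 replicate 2 and 1.18 in P59 replicate 1, whereas P59 replicate 2 had a ratio of 23.8. The Actb ratio was 1.36, 1.44 and 1.13 in the first 3 arrays and 3.12 in P59 replicate 2. P59 replicate 2 also lay apart on the first principal component. Values without that array are therefore given beside most differences of the elastic fibre genes and of the lists. All 8 dermal fibroblast genes and all 6 keratinocyte genes examined lay above the filter, as 10916 of the 18194 genes measured did.

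As a set, the elastic fibre genes were mostly higher at P59, and no single difference was past the adjusted threshold of 0.05. Among the 7 tested genes 6 were higher and 1, Fbln1, was lower, where 6376 of the 10916 genes tested were higher. The median difference was 0.42, against 0.05 over all genes tested. The adjusted threshold was passed by 0 of the 7 genes in limma, where 0.0183% of all genes tested passed it. At an unadjusted p under 0.05 limma gave 3 genes higher (Mfap4, Eln and Mfap5) and 0 lower, where 3.47% of all genes tested were higher and 3.01% lower. These are also the 3 genes whose P59 arrays both lay above both P54 arrays, which held for 18.9% of all genes tested. None of the 7 lay wholly below, as 14.8% of all genes tested did. In bulk skin, more cells of a type and more RNA per cell cannot be told apart.

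**Figure D1:**
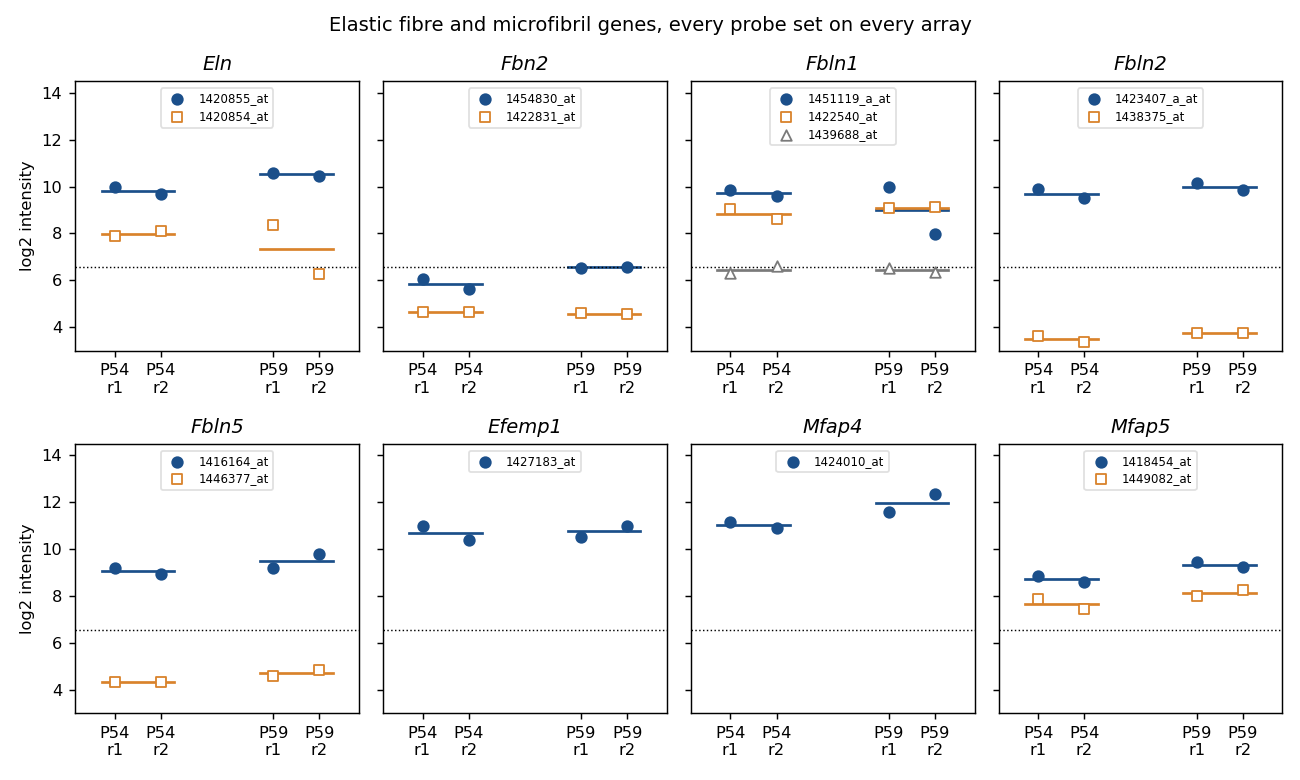
Log2 intensity (vertical axis) of each probe set of the 8 measured genes on the 4 arrays (horizontal axis; r1 and r2 are replicates 1 and 2). Filled points are the probe set with the highest mean, open points the others, short lines the mean of each group, and the dotted line the intensity filter at 6.58. The filled points of Eln, Mfap4, Mfap5 and Fbn2 are higher on both P59 arrays than on both P54 arrays, and a set of Eln and one of Fbln1 are low in P59 replicate 2 alone.

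Without P59 replicate 2 the same 3 genes, Eln, Mfap4 and Mfap5, differed by 0.77, 0.57 and 0.71. The median over the 7 genes was then 0.43, against -0.003 over all genes. Without P54 replicate 2 they differed by 0.54, 0.81 and 0.47, and the median was 0.29, against -0.03 over all genes. Such a fit has a single array in a group, so the spread within that group is not measured. P54 replicate 2 was the lowest array for 6 of the 7 genes, where it was the lowest for 42% of all genes tested. P54 replicate 1 exceeded P54 replicate 2 in 7 of 7, against 72.8% of all genes tested. With 2 arrays against 2, the smallest p an exact permutation test allows is 0.333, so the p-values are those of limma, which pools the spread over genes.

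Elastin, the rubber-like core of the fibre, was 1.62-fold higher at P59 by its main probe set. That set (1420855_at) read 9.98 and 9.67 at P54 (replicates 1 and 2, the order used throughout) and 10.60 and 10.46 at P59. The groups did not overlap, and the P59 arrays lay within 0.14 of each other. In limma the difference was 0.70 (SE 0.23, 95% interval 0.18 to 1.22, unadjusted p = 0.0134, adjusted p = 0.580). It was 0.77 without P59 replicate 2 and 0.63 without P59 replicate 1, and 0.54 without P54 replicate 2 and 0.85 without P54 replicate 1.

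The second Eln set (1420854_at), which the annotation ties to the same sequence record, gave another picture. It read 7.88 and 8.09 at P54 but 8.35 and 6.29 at P59. On the first 3 arrays the P59 value was the highest, by 0.36 over the P54 mean, while P59 replicate 2 lay 1.70 under that mean. Its difference over both P59 arrays was -0.67 (SE 0.66, adjusted p = 0.913 in limma over all probe sets). With the mean of the sets Eln differed by 0.01, and the call at an unadjusted p under 0.05 was lost (unadjusted p = 0.967 and adjusted p = 0.995 in limma).

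Gaps of this kind were more common in P59 replicate 2 than in P59 replicate 1. The main Eln set exceeded the second by 2.10, 1.58 and 2.24 in the first 3 arrays and by 4.17 in P59 replicate 2. Among 17416 probe sets above the filter, 2.96% lay more than 1.5 below the P54 mean in P59 replicate 2, against 0.362% in P59 replicate 1, limits chosen after the values were seen. Of 4202 genes with at least 2 such sets, the first pair differed in their change by over 2 in 2.45% for P59 replicate 2 and in 0.0714% for P59 replicate 1. The array with these gaps is the one with the high Gapdh ratio, whose part in the low Eln value was not tested.

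**Figure D2:**
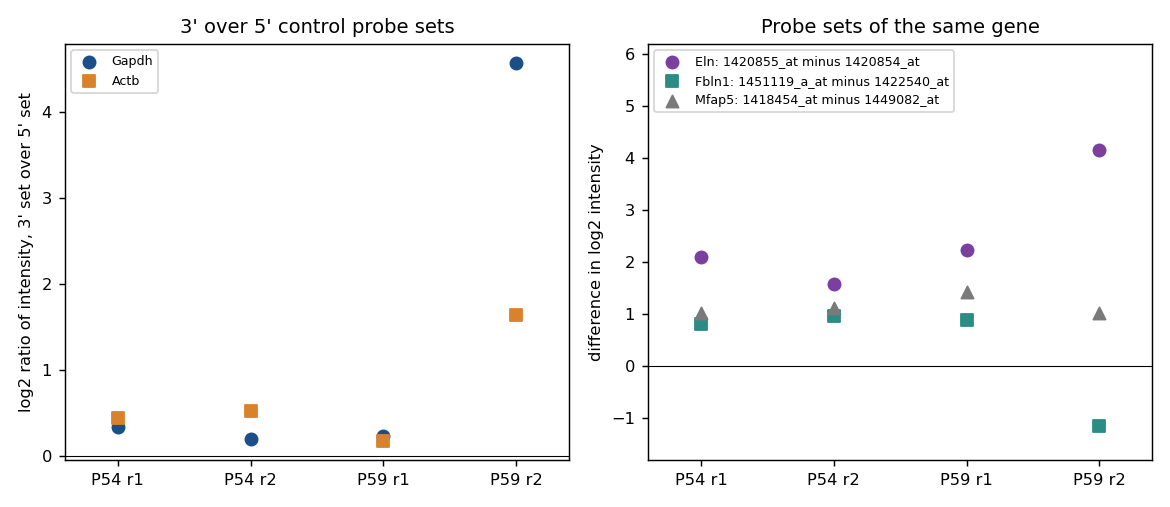
Left, log2 ratio of the 3′ over the 5′ control probe set of Gapdh and Actb on each array. Right, the difference in log2 intensity between the main and the second probe set of Eln, of Fbln1 and of Mfap5 on each array; P59 replicate 2 stands apart from the other 3 arrays for Gapdh (4.57), Actb (1.64), Eln (4.17) and Fbln1 (-1.14), while the Mfap5 pair lies between 1.02 and 1.43 on all 4.

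Mfap4 and Mfap5 had higher values at P59, neither past the adjusted threshold. The related Mfap2, Mfap3 and Mfap3l, which are not in the set, differed by -0.53, -0.14 and -0.001, and were named after their values were seen. Without P59 replicate 2 Mfap2, Mfap3 and Mfap3l differed by 0.25, -0.21 and -0.30. Mfap4, a fibrinogen-related glycoprotein that binds elastin and fibrillin and helps to organise the fibre, had the largest positive difference of the set. It read 11.18 and 10.89 at P54 and 11.60 and 12.38 at P59. Both P59 values exceeded both P54 values, with P59 replicate 2 higher than replicate 1 by 0.77. The difference was 0.96, or 1.95-fold (SE 0.29, 95% interval 0.32 to 1.60, unadjusted p = 0.00725, adjusted p = 0.496 in limma). A larger positive difference was seen in 0.852% of the genes tested. Without P59 replicate 2 it was 0.57. Without P59 replicate 1 it was 1.35, a value that rests on the P59 array with the high Gapdh ratio.

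Mfap5, also called MAGP-2, is a small glycoprotein of fibrillin microfibrils that is made by fibroblasts of several connective tissues. Its main set read 8.88 and 8.59 at P54 and 9.44 and 9.26 at P59, again without overlap. The difference was 0.62, or 1.53-fold (SE 0.23, 95% interval 0.10 to 1.14, unadjusted p = 0.0248, adjusted p = 0.648 in limma). The second Mfap5 set read 7.86 and 7.47 at P54 and 8.01 and 8.24 at P59, a difference of 0.46 (unadjusted p = 0.0823 and adjusted p = 0.902 in limma over all probe sets). Both sets thus placed both P59 arrays above both P54 arrays, and Mfap5 is the one gene with a pair of sets above the filter that did so. Without P59 replicate 2 the main set differed by 0.71. Leaving out any other array took its unadjusted p in limma above 0.05. The difference was then 0.52 without P59 replicate 1 (unadjusted p = 0.0575 and adjusted p = 0.285 in limma). With P54 replicate 1 left out it was 0.76, and with P54 replicate 2 left out 0.47 (unadjusted p = 0.0723 and 0.269, both adjusted p near 1, in limma).

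Fbn2, the fibrillin best known from developing tissue, lay just under the intensity filter. Its main set read 6.06 and 5.62 at P54 and 6.55 and 6.59 at P59, with groups that did not overlap. Its mean over the arrays was 6.21 against a filter of 6.58, so it was not tested with the others. When all genes were tested the difference was 0.72 (unadjusted p = 0.0116, adjusted p = 0.659 in limma). It was 0.70 without P59 replicate 2. The other Fbn2 set lay between 4.56 and 4.65 on all 4 arrays and was 0.07 lower at P59. A fold for Fbn2 is rough at such intensities.

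**Figure D3:**
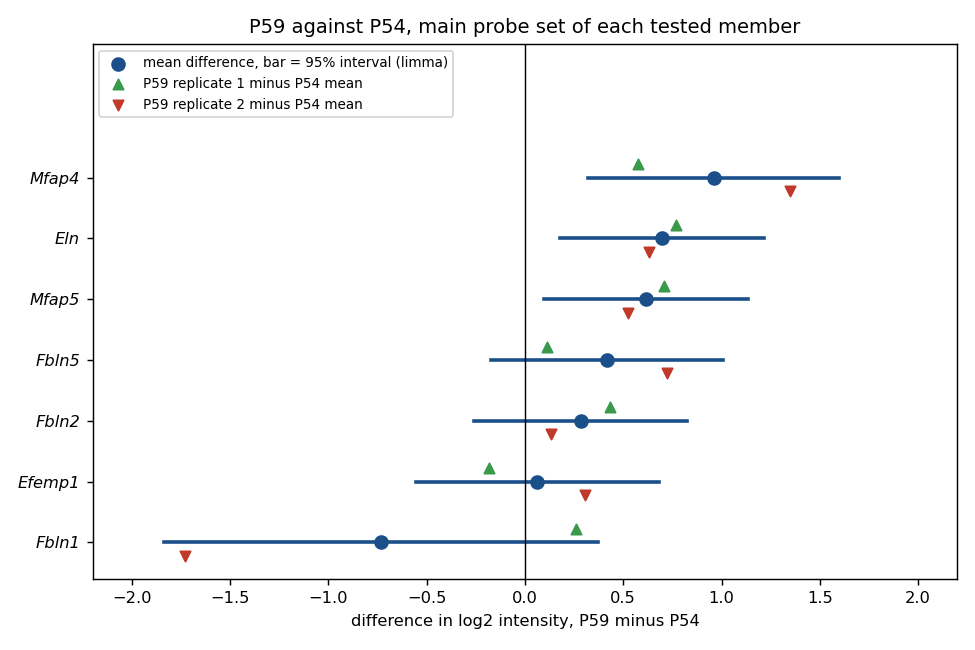
Difference in log2 intensity (horizontal axis), P59 minus P54, for the main probe set of the 7 tested genes. Blue points with bars are the mean of both P59 arrays and its 95% interval from limma, and triangles give each P59 array against the P54 mean; the intervals of Mfap4, Eln and Mfap5 lie above 0, and the triangles of Fbln1 lie on opposite sides of 0.

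The fibulins, a family of calcium-binding glycoproteins built from repeated EGF-like modules, showed no common pattern. Fbln5 links elastin to microfibrils and to cell-surface integrins. It read 9.22 and 8.96 at P54 and 9.20 in P59 replicate 1, and it was highest in P59 replicate 2, at 9.81. The groups overlapped, and the difference of 0.42 (95% interval -0.17 to 1.01, adjusted p = 0.890 in limma) was 0.11 without P59 replicate 2. Its second set, far below the filter, read 4.34 and 4.32 at P54 and 4.59 and 4.85 at P59.

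Fbln1, a fibulin of basement membranes and elastic fibres, had sets above the filter that disagreed in direction, as Eln did. Its main set (1451119_a_at) read 9.86 and 9.58 at P54 but 9.98 and 7.99 at P59. P59 replicate 1 was thus the highest array and P59 replicate 2 the lowest. The difference was -0.73 (SE 0.50, 95% interval -1.84 to 0.37, adjusted p = 0.907 in limma). It turned to 0.26 without P59 replicate 2. Without P59 replicate 1 it was -1.73, a value that rests on the P59 array with the high Gapdh ratio.

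The second Fbln1 set (1422540_at), tied to another sequence record, was higher at P59. It read 9.04 and 8.61 at P54 and 9.08 and 9.13 at P59, a difference of 0.28 (95% interval -0.26 to 0.82, adjusted p = 0.903 in limma over all probe sets). The main set minus the second was 0.81, 0.97 and 0.90 in the first 3 arrays and -1.14 in P59 replicate 2. Fbln1 is known to make transcripts with alternative 3′ ends, and the annotation does not tell which of them each set reads. Another set, below the filter, read 6.32 and 6.60 at P54 and 6.53 and 6.38 at P59. The part of RNA quality in the low value of the main set was not tested.

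Fbln2, which is found in elastic fibres and basement membranes, read 9.88 and 9.52 at P54 and 10.14 and 9.83 at P59. The groups overlapped, and the difference was 0.28 (95% interval -0.26 to 0.83, adjusted p = 0.939 in limma), or 0.43 without P59 replicate 2. Its second set, close to the floor of the array, lay between 3.36 and 3.76. Efemp1, or fibulin-3, is a short fibulin of loose connective tissue and fascia. It read 10.99 and 10.41 at P54 and 10.52 and 11.01 at P59, so each time held a high and a low array. The difference was 0.06 (95% interval -0.56 to 0.68, adjusted p = 0.998 in limma). It was -0.18 without P59 replicate 2 and -0.23 without P54 replicate 2.

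In P59 replicate 2, the array with the high Gapdh ratio, Fbln1 was low by its main set, though highest there by its second. Fbln5 and Efemp1 were both highest there, Efemp1 with little mean difference and at 11.01 against 10.99 in P54 replicate 1. These genes were picked by their values in that array. The 250 bases before their starts are shown side by side. They come from RefSeq on build GRCm38.p6, taken at the outermost start listed and printed 5′ to 3′ on the strand of the gene: Fbln1 from chr15:85205699-85205948 on the plus strand, Fbln5 from chr12:101819120-101819369 on the minus strand and Efemp1 from chr11:28852955-28853204 on the plus strand. Capitals mark matches on either strand to TATAAA (the TATA box), GGGCGG (the GC box), CCAAT (the CCAAT box) or CAGACA (a SMAD-type element).
Fbln1: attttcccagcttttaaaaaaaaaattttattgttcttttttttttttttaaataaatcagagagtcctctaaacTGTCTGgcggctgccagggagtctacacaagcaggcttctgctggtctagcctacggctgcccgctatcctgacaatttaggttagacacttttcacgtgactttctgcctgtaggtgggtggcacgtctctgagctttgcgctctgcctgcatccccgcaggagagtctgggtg
Fbln5: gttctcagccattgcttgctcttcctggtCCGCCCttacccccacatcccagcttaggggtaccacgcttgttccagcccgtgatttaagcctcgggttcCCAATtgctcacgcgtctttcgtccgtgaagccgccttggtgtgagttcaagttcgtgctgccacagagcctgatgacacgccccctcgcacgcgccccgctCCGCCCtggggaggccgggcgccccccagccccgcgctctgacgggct
Efemp1: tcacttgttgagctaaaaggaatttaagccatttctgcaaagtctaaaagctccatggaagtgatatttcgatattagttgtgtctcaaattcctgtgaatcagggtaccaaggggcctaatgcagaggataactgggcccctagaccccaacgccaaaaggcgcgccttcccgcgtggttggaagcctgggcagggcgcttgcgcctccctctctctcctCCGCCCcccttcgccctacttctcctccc
Fbln5 held 2 GC boxes on the opposite strand, beginning 221 and 48 bases before the start, and a CCAAT box at 150. Efemp1 held a GC box on the opposite strand at 29, and Fbln1 a CAGACA match on the opposite strand at 175 with no GC box. Fbln2, not printed here, also held a GC box on the opposite strand, at 16. It was not high in P59 replicate 2, where it read 9.83 against 10.14 in P59 replicate 1. Of 27025 gene promoters of this length, 33% held a GC box, 34.5% a CCAAT box, 17.1% a CAGACA match and 13% a TATA box. A match is a match of letters alone, and its part in the values given here was not tested.

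Genes that act with these proteins were examined in 4 lists. Lysyl oxidases crosslink elastin and collagen, and all 3 that were tested were higher at P59, with a median of 0.32. Lox itself read 11.10 and 10.97 at P54 and 11.62 and 12.48 at P59. As with Mfap4, both P59 arrays lay above both P54 arrays and P59 replicate 2 was the highest. The difference of Lox was 1.02, or 2.02-fold (95% interval 0.37 to 1.67, unadjusted p = 0.00585, adjusted p = 0.481 in limma), and it was 0.59 without P59 replicate 2. Without P59 replicate 1 it was 1.44, a value that rests on the P59 array with the high Gapdh ratio. Loxl4 differed by 0.32 (adjusted p = 0.934) and by only 0.06 with the mean of its sets. Loxl1, an oxidase tied to elastic fibre upkeep, differed by 0.10 (adjusted p = 0.987) and by 0.42 with the mean of its sets. Leaving out P59 replicate 2 gave a list median of 0.52, with Loxl4 at 0.24 and Loxl1 at 0.52.

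Latent TGF-beta binding proteins sit on fibrillin microfibrils and store the growth factor there. Of the 4 tested, 3 were higher and 1 lower, with a median of 0.22. Ltbp1 differed by 0.32 (adjusted p = 0.921), Ltbp2 by 0.27 (adjusted p = 0.952) and Ltbp3 by 0.17 (adjusted p = 0.954). Ltbp4, which works with fibulins in elastin assembly, differed by -0.72 (adjusted p = 0.880). It read 10.16 and 9.77 at P54 but 10.06 and 8.43 at P59, so its low value too lies in that array alone, and without it the difference was 0.10. Without that array the list median was 0.08, and Ltbp1, Ltbp2 and Ltbp3 differed by 0.07, -0.12 and 0.13.

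The other 17 tested proteins of microfibrils and elastic fibres split into 10 higher and 7 lower, with a median of 0.03. At an unadjusted p under 0.05 limma gave 2 higher and 1 lower, where 3.47% of all genes tested were higher and 3.01% lower. Emilin2, an elastin-microfibril interface glycoprotein, read 8.65 and 8.49 at P54 and 9.27 and 9.45 at P59. Its difference of 0.79 (95% interval 0.28 to 1.30, adjusted p = 0.481 in limma) stayed between 0.70 and 0.88 whichever array was left out. Fbln7 differed by 0.92 (adjusted p = 0.519), from a P54 mean of 6.13 below the filter. It passed the filter only through its P59 values, and its fold is rough. Adamts10, a metalloprotease of fibrillin microfibrils, differed by -1.18 (adjusted p = 0.723) and by -0.27 without P59 replicate 2, where it read 6.04 against 7.82 and 8.43 at P54. Hmcn1 differed by -0.35 (adjusted p = 0.917). The list median was 0.08 without P59 replicate 2, with Fbln7 at 1.29 and Hmcn1 at -0.57.

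Of 6 tested proteases that can cut elastin, 5 were higher and 1 lower, with a median of 0.28. Of the 6, 4 were higher on both P59 arrays than on both P54 arrays, as 18.9% of all genes tested were. The macrophage cathepsin Ctss read 10.77 and 10.69 at P54 and 11.14 and 11.52 at P59 (difference 0.60, adjusted p = 0.698 in limma). The gelatinase Mmp2 differed by 0.39 (adjusted p = 0.869), Ctsl by 0.33 (adjusted p = 0.917) and Mmp14 by -0.30 (adjusted p = 0.934). On P59 replicate 1 alone against P54 the median was 0.14, and Ctss, Mmp2, Ctsl and Mmp14 differed by 0.41, 0.29, 0.15 and -0.08. Mmp12, the elastase of macrophages, was below the filter and is named after its values were seen. It read 5.35 and 4.80 at P54 and 6.75 and 7.52 at P59, and when all genes were tested it differed by 2.06 (95% interval 1.32 to 2.80, adjusted p = 0.384 in limma). Without P59 replicate 2 it differed by 1.68. Both P54 values lie far below the filter, so the size of this difference is rough too. The other list genes below the filter went both ways. Thsd4, of the microfibril list, read 7.04 and 6.79 at P54 and 6.21 and 5.66 at P59. Its difference was -0.98 (adjusted p = 0.588 in limma when all genes were tested), or -0.70 without P59 replicate 2. Prtn3 and Ctsg differed by -0.41 and -0.09, and Mmp7, Loxl3 and Elane by 0.25, 0.18 and 0.18. Of the 30 tested genes of the 4 lists, 0 were past the adjusted threshold in limma.

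**Figure D4:**
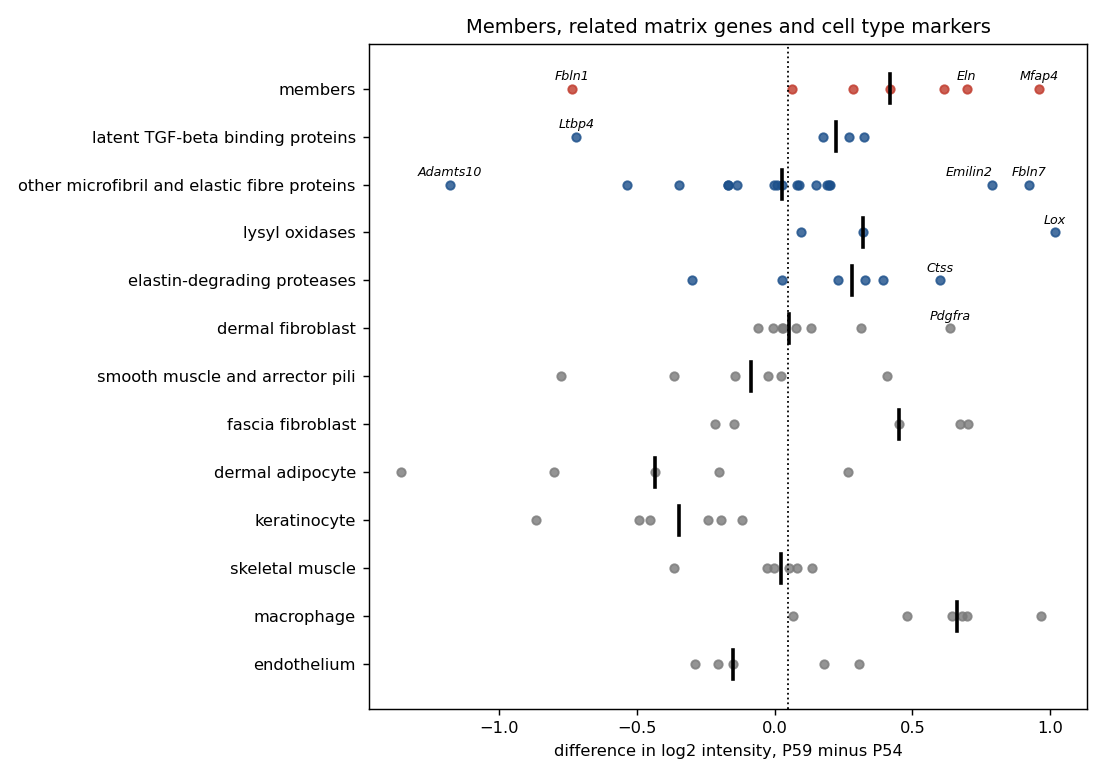
Difference in log2 intensity (horizontal axis), P59 minus P54, of each tested gene in each list (points), with the median of the list as a black bar and the median of all genes tested, 0.05, as a dotted line. Red points are the elastic fibre genes, blue the related matrix genes and grey the cell type markers. The bar of the elastic fibre genes is at 0.42. That of the dermal fibroblast markers, where Col1a1, Col1a2 and Col3a1 read near the highest intensity on any array, is at 0.05.

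No cell type marker examined was past the adjusted threshold in limma. At an unadjusted p under 0.05 limma gave 11 of 47, with 7 higher and 4 lower. Of all genes tested 3.47% were higher and 3.01% lower at that level. The part of these markers in the elastic fibre values was not tested. The 8 markers of dermal fibroblasts, the cells that make most elastin of the dermis, had a median difference of 0.05, with 6 higher and 2 lower. Their summed intensity was 99760 and 97171 at P54 and 97770 and 103279 at P59, so the sums overlapped. Col1a1, Col1a2 and Col3a1 weigh most in these sums. They read from 14.46 to 14.55, near the highest intensity on any array (24000), where a rise may not show. The fibroblast receptor gene Pdgfra differed by 0.64 (adjusted p = 0.648) and the matrix gene Dpt by 0.32 (adjusted p = 0.917). The other markers, Pdgfrb, Lum and Dcn, also read below those collagens and differed by only 0.13, 0.08 and 0.03. Without P59 replicate 2 they differed by -0.09, -0.06 and 0.004. The list of fascia fibroblasts had a median of 0.45, with 3 higher and 2 lower of 5. Its summed intensity ran from 3961 to 4463 at P54 and from 4224 to 4772 at P59. Sfrp4 and Dpp4 differed by 0.67 and 0.70 (adjusted p = 0.600 and 0.620). Without P59 replicate 2 the fibroblast median was -0.01, with Pdgfra at 0.42 and Dpt at 0.14, and the fascia median was 0.41, with Sfrp4 at 0.55 and Dpp4 at 0.41.

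All 6 macrophage markers were higher, with a median of 0.66, and their sum ran from 6048 to 7079 at P54 and from 7529 to 10236 at P59. Mpeg1 and Fcgr3 differed by 0.96 and 0.70 (adjusted p = 0.406 and 0.600 in limma). All 6 keratinocyte markers were lower, with a median of -0.35, and their sum ran from 65939 to 70161 at P54 and from 53770 to 58731 at P59. Of 5 adipocyte markers 4 were lower, with a median of -0.44, and their sum ran from 15541 to 17278 at P54 and from 12678 to 14543 at P59. Smooth muscle of vessels and of the arrector muscles also makes elastin. Its 6 markers had a median of -0.08, with 2 higher and 4 lower. On both P59 arrays 3 lay below both P54 arrays and 0 above, where 14.8% and 18.9% of all genes tested did. The markers summed to 11318 and 9268 at P54 and to 13032 and 8027 at P59. Des, which varied most among them, read 12.17 and 11.56 at P54 and 12.82 and 10.96 at P59. The endothelial median was -0.15 and the skeletal muscle median 0.03, and both sums overlapped between the times. Without P59 replicate 2 the medians were 0.47 for macrophages, -0.26 for keratinocytes, -0.42 for adipocytes, -0.13 for smooth muscle, -0.13 for endothelium and 0.23 for skeletal muscle. All measured markers of these 8 lists lay above the filter, as 10916 of the 18194 genes measured did.

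The typical course of the 7 tested genes over the arrays, taken as the median of their values after centring each gene on its own mean, was -0.08 and -0.33 at P54 and 0.29 and 0.28 at P59. The 6 other tested genes nearest to that course over the 4 arrays were Fhl1, B4galt6, Filip1, Acsl3, Rnf149 and Fcer1g. Their root mean square differences from it ran from 0.05 to 0.06 on the log2 scale. Fhl1, a LIM-domain protein of muscle, read 12.72 and 12.42 at P54 and 13.12 and 13.08 at P59. Fcer1g, a signalling subunit of Fc receptors in blood-derived cells, read 9.24 and 9.08 at P54 and 9.60 at P59 on both arrays. With 4 arrays many genes can follow the same course, and the likeness is a description alone.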

How the data were processed

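RNA of dorsal skin was labelled by the Affymetrix procedure and measured on 4 arrays. The authors deposited linear probe set intensity values, made with RMA and Affymetrix Expression Console per the submitters' processing notes (no version or genome build is given in the sources used here). The lowest intensity was 6.41 and the highest 24000. RMA forces the arrays to a common distribution, which can hide a change shared by most genes. Log2 was taken without a pseudocount. Of 45101 probe sets, those with 1 gene symbol (34958) were kept, and each gene was read from its set of highest mean. A gene was tested if its mean log2 intensity was above 6.58, the 40th percentile. The test was lmFit with eBayes (limma 3.58.1 under R 4.3.3), and p-values were adjusted over all tested genes (Benjamini-Hochberg). A gene has 2 residual degrees of freedom and gains 8.19 from the prior. The number of arrays limits the precision.

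Every elastic fibre gene is named, with up to 4 genes of each related list and 2 of the main marker lists by smallest p, and the 6 genes nearest to the median course. Exceptions, named after their values were seen, are Mmp12 and the other list genes below the filter, Mfap2, Mfap3, Mfap3l, Col1a1, Col1a2, Col3a1, Pdgfrb, Lum, Dcn and Des. The genes, lists and tests were chosen with earlier results of these data known. No set test was run. The fit was tested on simulated data with known changes. Alternatives were other filters, the mean of a gene's sets, each set singly, other scalings, a pseudocount, an intensity trend, the replicate number as a block and each array left out.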

Additional observations from a re-analysis of the deposited data

How the results depend on the processing

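In limma 2 of all genes tested passed the adjusted threshold. That count was 0 without a filter, with a filter at the 60th percentile, with the mean of all probe sets, with each set singly, after repeated quantile normalization and with log2(value + 16), 47 after median centring, and from 29 to 401 when 1 array was left out. Of the elastic fibre genes 0 passed, with 3 at an unadjusted p under 0.05, and from 0 to 2 passed when 1 array was left out, the 2 being Fbln1 and Mfap4 without P59 replicate 1. The count higher at an unadjusted p under 0.05 ran from 0 (without P54 replicate 2) to 3 when an array was left out, and the count lower from 0 to 1. Of the genes of the related and marker lists 0 passed in the main analysis, with 16 at an unadjusted p under 0.05, and from 0 to 8 passed when an array was left out, the 8 without P59 replicate 1.

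With the replicate number as a block, 155 genes passed, 0 of them elastic fibre genes and 2 from the lists (Adamts10 and Lipe), and 1 elastic fibre gene (Fbln1) was lower at an unadjusted p under 0.05. The deviations of same-numbered arrays had a correlation of -0.04 over genes, so the numbers are not treated as pairing. In that fit and in those without a P54 array the prior gave all genes the same spread. Every fit with an array left out has a single array in a group, whose spread is then not measured. Counts from these fits are therefore not comparable with the main count. Leaving out 1 array also turned the sign of several differences. The range over left-out arrays was -1.73 to 0.26 for Fbln1, -0.23 to 0.35 for Efemp1, -1.53 to 0.10 for Ltbp4, -0.12 to 0.66 for Ltbp2 and -0.33 to 0.52 for Loxl1. Among markers it was -0.94 to 0.22 for Ckm, -0.11 to 0.39 for Tnnt3 and -0.72 to 0.14 for Pecam1. The causes were not tested. Read from the main set, or from the mean of all sets, Eln, Fbln2, Fbln5, Mfap4 and Mfap5 stayed higher at P59 in all 13 alternatives, with Eln as low as 0.01 with the mean of its sets, while the second Eln set tested singly gave -0.67. The median over all genes was 0.05, and it was 0.12 without P54 replicate 1 or P59 replicate 1, -0.03 without P54 replicate 2 and -0.003 without P59 replicate 2.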
